A study of Mus musculus with 10 samples.

Results

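The mammary epithelium has an inner luminal layer, which senses hormones and makes milk, and an outer basal layer of myoepithelial cells, which contract and squeeze the milk out. Here those layers were compared across all genes in sorted cells of female mice that were wild type (WT) or knockout (KO) for Bptf, which encodes the defining subunit of the chromatin remodeller NURF. A total of 8 of the 10 samples of the series belong to this comparison, with 4 samples of luminal epithelial cells (2 WT and 2 KO) and 4 of myoepithelial cells (2 WT and 2 KO), and the other 2 are KO cells that the labels call Bsecs. Tamoxifen was given to all mice, controls included, up to a total of 15 mg per kg. The sources used here do not give the age of the animals, the allele or the driver of any recombinase.

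The deposited tables hold 1 column of mean values per group, so the 8 samples are represented by 4 columns, each of which may pool both samples of a group or hold 1 of them. The lineages were compared as 2 luminal columns (WT and KO) against 2 basal columns. Whole read counts were recovered from the means and divided by 1 median-of-ratios factor per column, and the result is called a normalised count. The basal columns carry opposite genotype names in different tables and are told apart by their totals, 2036681 counts (the smaller basal column) and 2359861 counts (the larger), and the luminal columns held 2729006 (WT) and 3840462 (KO) counts. The KO luminal samples have a second label that names WT mice as their source, and they are called KO after their titles. Neither conflict touches which lineage a column belongs to. The ribosomal precursor Rn45s took 9.76% to 16.2% of the counts of these columns, with 1 luminal and 1 basal column near either end.

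Luminal cells build simple keratins, tight junctions and an apical surface, and a part of them carries the receptors for oestrogen, progesterone and prolactin. Basal cells rest on the basement membrane, use keratins 5 and 14, and hold a smooth muscle contractile apparatus that answers to oxytocin. Signals pass between the layers, since ligands made in one are often read by receptors in the other.

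The defining markers followed the lineage labels. Krt5, a basal keratin, stood at 3241 and 1828 normalised counts in the basal columns and 0.919 and 31.1 in the luminal columns. Krt14, its partner, stood at 7738 and 2156 normalised counts in the basal columns and 49.6 and 221 in the luminal columns. Smooth muscle actin, Acta2, stood at 16953 and 11979 normalised counts in the basal columns and 34.9 and 68.2 in the luminal columns. For each of these 3 genes both basal columns were above both luminal columns, by 58.7, 9.76 and 176 times when the lower basal value is set against the higher luminal one. On the luminal side Krt8 had 5047 and 4441 normalised counts in the luminal columns and 474 and 122 in the basal columns. Its partner Krt18 had 18184 and 17344 normalised counts in the luminal columns and 524 and 275 in the basal columns. The luminal pair of columns was 9.37 and 33.1 times the basal pair at its closest. All 5 passed the edgeR quasi-likelihood test (adjusted p 2.81e-05 for Krt5, 1.34e-04 for Krt14, 5.51e-07 for Acta2, 2.61e-04 for Krt8 and 7.27e-06 for Krt18). Epcam, a surface protein of both layers, had 7729 and 6138 normalised counts in the luminal columns and 2421 and 2754 in the basal columns, which did not overlap but did not pass (adjusted p = 0.0651), though it passed with DESeq2 and with limma-voom. Bptf itself had 588 and 755 normalised counts in the luminal columns and 569 and 773 in the basal columns, and its lineage columns overlapped. In sorted bulk samples fewer cells of a type and less RNA per cell cannot be told apart, which holds for every level given here.

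Over all genes, 10530 had a mean of at least 10 normalised counts in the 4 columns and were tested. The columns of the lineages did not overlap for 3134 genes with luminal higher (29.8% of those tested). They did not overlap for 2817 genes with basal higher (26.8%), 56.5% in all. With so few columns per lineage, many genes that do not differ would also have columns that do not overlap, by chance alone. These shares are therefore not the shares of genes that differ by lineage, and a lack of overlap alone does not show a difference. A gap of at least 4-fold, counted between the nearest columns after adding 1 to each value, was left in 811 genes with luminal higher (7.7%) and 480 with basal higher (4.56%), 12.3% in all. The edgeR test called 905 genes higher in the luminal columns (8.59%) and 630 higher in the basal columns (5.98%), 14.6% in all, at an adjusted p under 0.05. Of the 1535 genes called, 1528 also had columns that did not overlap. Each lineage is represented by 1 WT and 1 KO column, so the spread the test uses contains the genotype, and the p-values compare these columns. Leaving out the KO luminal column reduced the luminal calls to 547, and leaving out the WT luminal column reduced the basal calls to 386. Without the smaller or the larger basal column the luminal calls rose to 933 and 1255 and the basal calls to 674 and 786. In all, 643 genes (370 luminal and 273 basal) stayed past the threshold whichever column was left out.

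Columns of a lineage resembled each other more than columns of different lineages. Across the 10530 genes the median difference between the luminal columns was 0.66 on the log2 scale of normalised counts plus 1, and between the basal columns 0.81. Between a luminal and a basal column it ran from 1.03 to 1.16. At least 4-fold apart were 8.76% of genes in the luminal pair, 14.9% in the basal pair and 24.9% to 29.95% in the pairs across lineages.

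**Figure D1:**
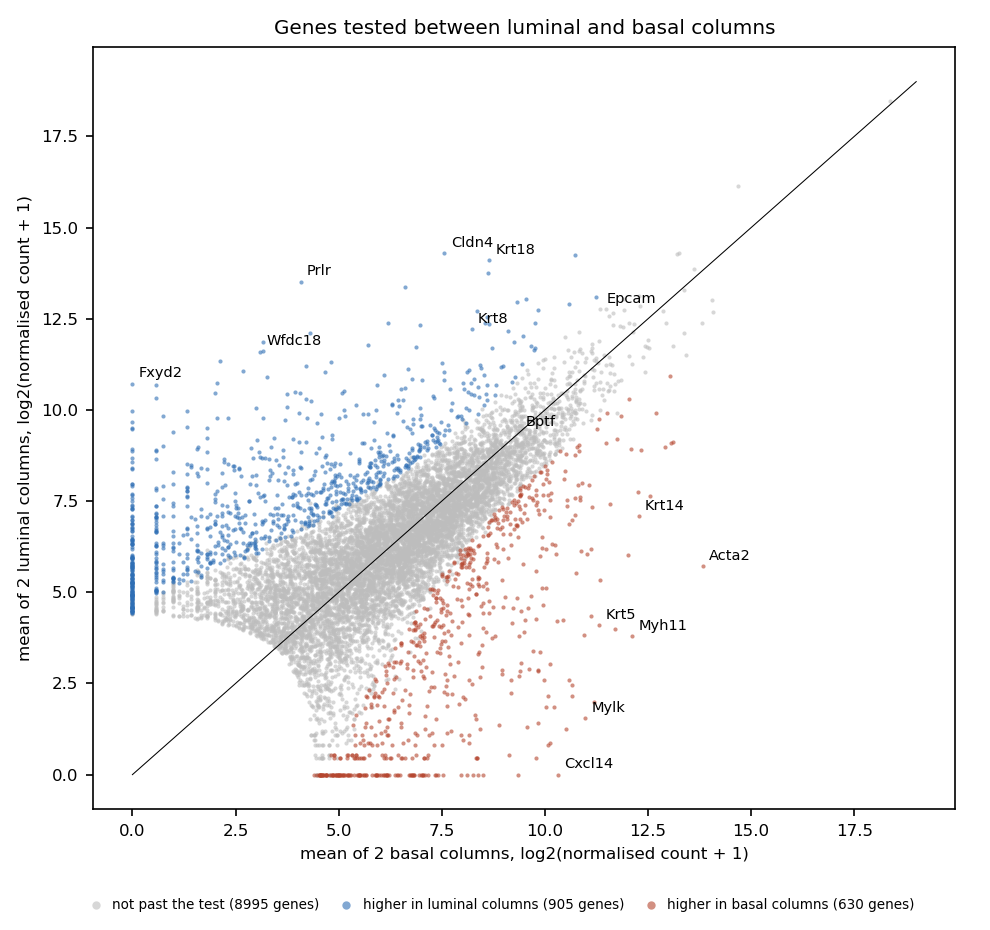
Mean of the 2 luminal columns (vertical) against the mean of the 2 basal columns (horizontal) for 10530 genes, both as log2 of the normalised count plus 1, with the line of equal values. Points are single genes, blue where the edgeR test called them higher in luminal columns (905), red where higher in basal columns (630) and grey otherwise, and Bptf lies on the line.

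Among genes called luminal with a mean of at least 50 normalised counts, the 12 widest gaps began with Fxyd2, Mlph and Alox15. Fxyd2, a regulator of the sodium pump, had 1455 and 1916 normalised counts in the luminal columns and 0 and 0 in the basal columns. Mlph (melanophilin, a linker of vesicles to myosin) had 1047 and 953 normalised counts in the luminal columns and 0 and 0 in the basal columns, and Alox15, a lipoxygenase, had 758 and 863 normalised counts in the luminal columns and 0 and 0 in the basal columns. With no read in either basal column these are lower bounds of the gap, set against a floor of 3 counts per column: at least 358-fold higher for Fxyd2, 235-fold for Mlph and 187-fold for Alox15. Fgb (fibrinogen beta chain), Nrxn3 (a neurexin), Cxcl15 (a chemokine of epithelia), Slc5a5 (the sodium iodide symporter of lactating gland and thyroid) and Rhov (a small GTPase) were also without a basal read, at least 113-, 104-, 99.2-, 98.8- and 92.5-fold higher. Areg, the EGF receptor ligand released downstream of oestrogen, had 1428 and 1868 normalised counts in the luminal columns and 0 and 0.991 in the basal columns. Its single basal read gives a ratio of summed counts of 2920.3 (95% counting interval 524 to 115372) by the Clopper-Pearson method. For every one of these genes both luminal columns were far from the basal columns, which is how they were picked. Cited1, a transcriptional coregulator of hormone-sensing cells, had 1752 and 815 normalised counts in the luminal columns and 0 and 0.991 in the basal columns, a ratio of summed counts of 2155 (95% counting interval 386 to 85135). Tph1, the first enzyme of serotonin synthesis, had 1091 and 721 normalised counts in the luminal columns and 1.35 and 0 in the basal columns, a ratio of summed counts of 1548 (95% counting interval 277 to 61154). Ceacam1, a cell adhesion molecule of the apical surface, had 3253 and 1897 normalised counts in the luminal columns and 2.71 and 3.96 in the basal columns, a gap of 478 times. The adjusted p of the 12 genes in the edgeR test ran from 4.38e-07 (Areg) to 2.80e-06 (Rhov). Passing that test was a condition for being named by gap, so it is not a further result.

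Chosen in the same way among genes called basal, the 12 widest gaps included those of Cxcl14, Nipal4 and Mylk. Cxcl14, a secreted chemokine, had 1421 and 1119 normalised counts in the basal columns and 0 and 0 in the luminal columns, at least 406-fold higher. Pappa, a protease that frees IGF from its binding proteins, and Moxd1, a copper monooxygenase-like protein, also lacked luminal reads and were at least 109- and 73.7-fold higher. Nipal4, of the NIPA family of magnesium transporters, had 1232 and 1001 normalised counts in the basal columns and 0.919 and 0.741 in the luminal columns. Mylk, the kinase that switches on smooth muscle myosin, had 2406 and 1607 normalised counts in the basal columns and 0.919 and 2.97 in the luminal columns. Scn7a, a sodium channel, had 2577 and 2120.2 normalised counts in the basal columns and 0 and 5.93 in the luminal columns. At their closest, the basal columns were 542 and 358 times the luminal ones for Mylk and Scn7a, 467 times for collagen XIV (Col14a1), 285 times for follistatin (Fst) and 226 times for smooth muscle myosin heavy chain (Myh11). With 1 to 3 luminal reads in total, the ratio of summed counts and its 95% counting interval was 1339 (370.1 to 11061) for Nipal4, 1336 (369 to 11038) for the matrix protease Adamts5, 2275 (408 to 89927) for fibrillin 1 (Fbn1) and 1162 (397 to 5637) for the protease inhibitor Serpina3n. The adjusted p of the 12 basal genes in the edgeR test ran from 4.38e-07 (Cxcl14) to 4.30e-06 (Moxd1). Passing was again a condition for being named by gap.

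**Figure D2:**
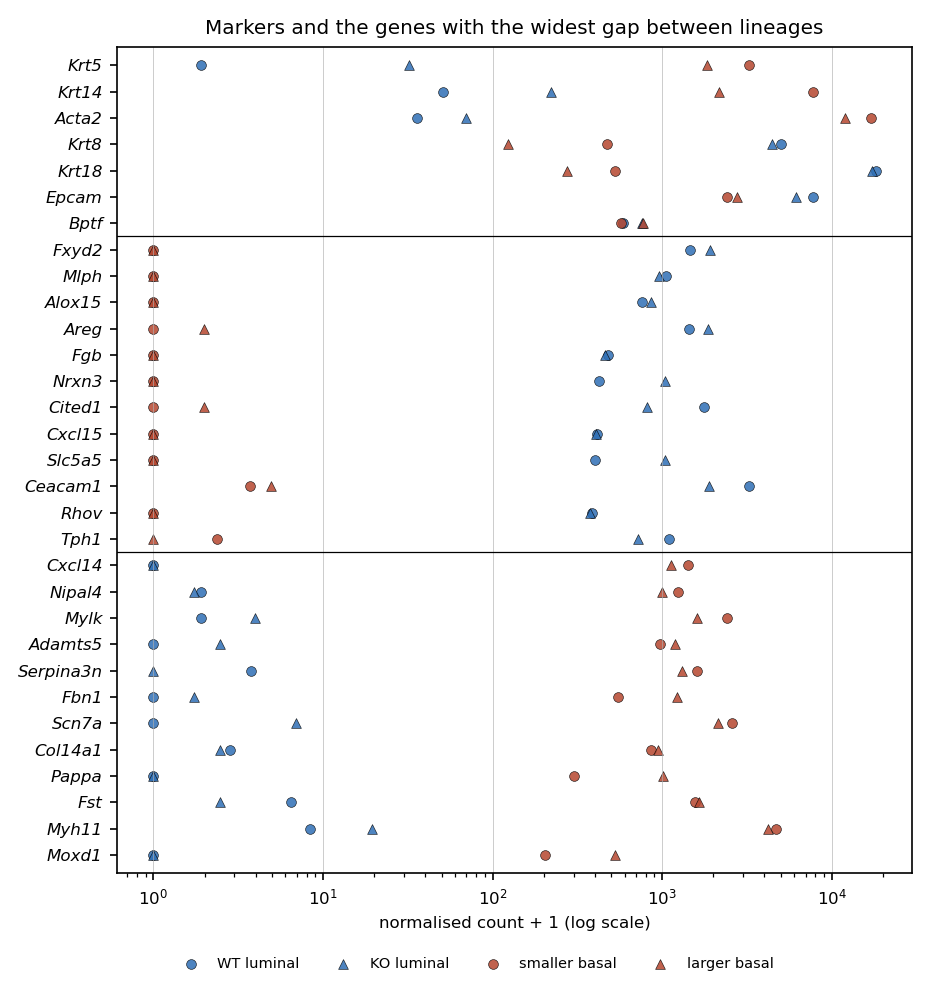
Normalised count plus 1 on a log axis for the 7 defining genes (top) and the 12 genes with the widest gap among those called luminal (middle) or basal (bottom). Each symbol is 1 column, blue for luminal and red for basal. Of the 7 defining genes only Bptf has overlapping blue and red groups. The genes in the middle and bottom were picked for the gap between these groups.

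The lists of genes described next were read against the background shares given above, 8.59% of the genes tested called luminal and 5.98% called basal. A member enters through its mean over the 4 columns. A member that is near 0 in one lineage can therefore pass that filter through the other lineage alone, so the counts describe the members measured and not the list as a whole. Where a list is given with 0 calls in a direction, at most 1 of its members had an unadjusted p under 0.05 and at most 1 was called by DESeq2 or limma-voom, apart from an oxidative phosphorylation list with 2 at the unadjusted level. Near-identical copies such as the keratins Krt6a and Krt6b, the smooth muscle actins and the casein cluster may share reads, and their single values are less certain than the others.

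Basal keratins gave 3 basal calls (Krt5, Krt14 and Krt17) and 1 luminal call among 6 measured. The luminal call, Krt6a, was at 117 and 365 against 4.06 and 56.5 (luminal against basal columns, adjusted p = 0.0296) and was lost without the KO luminal column (adjusted p = 0.337). Simple keratins were luminal. Of 7 listed, 6 were measured, 4 passed as luminal higher and 0 as basal higher, with a median log2 fold (luminal over basal) of 4.73 against 0.03 over all genes tested. Krt19 had 8473 and 12682 normalised counts in the luminal columns and 157 and 36.7 in the basal columns. Krt7 had 2114 and 2966 normalised counts in the luminal columns and 48.8 and 5.95 in the basal columns. Both luminal columns were far above both basal ones, and the smaller basal column held more of each than the larger. Krt23 was at 0.919 and 44.5 against 215 and 79.3 (luminal against basal columns) and did not pass (adjusted p = 0.0916), except as basal higher without the KO luminal or the larger basal column.

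Hormone receptors and their targets had the highest median of the lists with at least 6 members measured, 5.80 (5.80 with genes that lack reads in one lineage at their bound), where 11 of 13 measured members passed as luminal higher and 0 as basal higher. Prlr, the prolactin receptor, had 15458 and 7985 normalised counts in the luminal columns and 4.06 and 27.8 in the basal columns. Pgr, the progesterone receptor, had 1001 and 1042 normalised counts in the luminal columns and 50.1 and 17.8 in the basal columns. Foxa1, the factor that opens chromatin for the oestrogen receptor, had 246 and 252 normalised counts in the luminal columns and 0 and 1.98 in the basal columns. Each of the 3 was separated, with log2 folds of 9.32 (SE 0.88) for Prlr and 4.85 (SE 0.63) for Pgr and a ratio of summed counts of 218 (95% counting interval 60.1 to 1803) for Foxa1. The surface proteins Prom1 and Ly6a, used to sort hormone-sensing cells, had log2 folds of 5.79 and 5.95 (adjusted p 2.86e-06 and 6.21e-05). Esr1, the oestrogen receptor, and the water channel Aqp3 were the 2 measured members that did not pass. The values of Esr1 were 329 and 445 against 966 and 29.7 (luminal against basal columns), so the smaller basal column held the highest level and the larger basal column the lowest, and it did not pass (adjusted p = 0.836). Without the smaller basal column its log2 fold was 3.63 (adjusted p = 1.38e-04), and with all columns -0.36.

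Luminal transcription regulators were luminal in part. Of 19 measured, 9 passed as luminal higher, 0 as basal higher, and 5 of the former kept the call without each column in turn. The ETS factor Ehf had 225 and 275 normalised counts in the luminal columns and 0 and 0 in the basal columns, at least 55.4-fold higher. Another ETS factor, Elf3, had 413 and 404 normalised counts in the luminal columns and 2.71 and 13.9 in the basal columns (log2 fold 5.28, SE 0.72, adjusted p = 4.83e-05). Gata3, a factor required for the luminal lineage, did not separate the columns, at 280.3 and 684 against 541 and 224 (adjusted p = 0.764). Elf5, which drives alveolar cells, was low throughout, at 24.8 and 35.6 against 0 and 3.96, and did not pass either (adjusted p = 0.127). Runx1, a factor of both layers, was at 2994 and 2342 against 1149.7 and 1583 (basal against luminal columns), which did not overlap and did not pass (adjusted p = 0.221).

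Progenitor and secretory genes stood on the luminal side. Aldh1a3, a retinaldehyde dehydrogenase of luminal progenitors, had 2832 and 3456 normalised counts in the luminal columns and 4.06 and 11.9 in the basal columns. Wfdc18, a secreted protease inhibitor-like protein, had 3161 and 3027 normalised counts in the luminal columns and 12.2 and 2.97 in the basal columns. These 2 had like values in the WT and KO luminal columns. Casein kappa, Csn3, had 3613 and 667 normalised counts in the luminal columns and 0 and 10.9 in the basal columns, and lactoferrin, Ltf, had 3792 and 896 normalised counts in the luminal columns and 33.9 and 0.991 in the basal columns. Both milk genes were several times higher in the WT than in the KO luminal column, yet the KO column was still far above both basal columns. With 1 column per genotype, this difference between the luminal columns was not tested. Of 13 measured members of the milk list 9 passed as luminal higher and 1 as basal higher, each of them also without each column in turn, with a median of 3.57. The number of basal calls was 2 without the smaller basal column. The caseins Csn2 and Csn1s1 were below the minimum level. The member higher in basal cells was Glycam1, a mucin of milk, with 25.7 and 191 normalised counts in the basal columns and 0 and 0 in the luminal columns (adjusted p = 5.89e-04). Of the 12 progenitor genes measured 7 passed as luminal higher and 0 as basal higher. Kit, the receptor that marks luminal progenitors, was at 61.6 and 31.1 against 4.06 and 0 and passed in the full set (adjusted p = 0.0461) but not without the KO luminal column (adjusted p = 0.0723), without the WT luminal column (adjusted p = 0.312) and without the larger basal column (adjusted p = 0.0883). Lcn2, an iron-binding defence protein, was abundant in all 4 columns, at 19090.1 and 21152 against 9016 and 10370.2, and did not pass (adjusted p = 0.187).

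Of 16 measured fatty acid synthesis genes 2 passed as luminal higher and 0 as basal higher, a share near the 14.6% called over all genes, and the median log2 fold was -0.66. The number of basal calls was 2 without the smaller basal column. Dgat2, which closes triglycerides, had 739 and 861 normalised counts in the luminal columns and 20.3 and 21.8 in the basal columns (log2 fold 5.12, SE 0.59, adjusted p = 7.94e-06), and the desaturase Scd1 had 362 and 383 normalised counts in the luminal columns and 40.6 and 47.6 in the basal columns (log2 fold 3.02, SE 0.58, adjusted p = 0.00126). The synthase Fasn stood at 239 and 212 against 438 and 427 and did not pass (adjusted p = 0.245).

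Tight junctions and apical polarity were luminal throughout the members that passed. Of 19 measured, 12 passed as luminal higher and 0 as basal higher, with a median of 3.58 (3.38 with genes lacking reads in one lineage placed at their bound). Of these, 8 kept the call without each column in turn. Claudin 3, Cldn3, had 258 and 552 normalised counts in the luminal columns and 0 and 0.991 in the basal columns, a ratio of summed counts of 735 (95% counting interval 132 to 29076). Claudin 4, Cldn4, had 12678 and 27703 normalised counts in the luminal columns and 5.42 and 371 in the basal columns, so that the basal columns themselves lay far apart while both remained below the luminal ones. Occludin, Ocln, had 289 and 339.5 normalised counts in the luminal columns and 14.9 and 33.7 in the basal columns and the junction adaptor Tjp3 had 99.3 and 137 normalised counts in the luminal columns and 0 and 0 in the basal columns, at least 24.4-fold higher. The scaffold protein Tjp1, which other junctions use too, was not called, with a log2 fold of 0.96 (adjusted p = 0.217).

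Cadherins and desmosome proteins divided between the layers. The shares called over all genes tested were 8.59% luminal and 5.98% basal. Of 14 measured, 4 passed as luminal higher and 2 as basal higher, of which 2 and 1 kept the call without each column in turn, and the number of basal calls was 1 without the WT luminal column, 1 without the KO luminal column and 1 without the larger basal column. P-cadherin, Cdh3, had 892 and 569.95 normalised counts in the basal columns and 1.84 and 34.1 in the luminal columns. Plakophilin 2, Pkp2, had 534 and 423 normalised counts in the luminal columns and 5.42 and 17.8 in the basal columns, and desmocollin 2, Dsc2, had 248 and 169.8 normalised counts in the luminal columns and 2.71 and 11.9 in the basal columns. Cdh3 was thus basal, and Pkp2 and Dsc2 luminal, with log2 folds of -5.18 (SE 0.82), 5.11 (SE 0.68) and 4.48 (SE 0.79).

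Ion and water transport genes gave 6 luminal and 1 basal calls among 16 measured, against 8.59% and 5.98% of all genes tested. Aqp5, a water channel of glands, had 401 and 527 normalised counts in the luminal columns and 0 and 0.991 in the basal columns. Scnn1a, a subunit of the epithelial sodium channel, had 379 and 385 normalised counts in the luminal columns and 1.35 and 5.95 in the basal columns, and Slc12a2, the sodium potassium chloride cotransporter, had 3702 and 7059 normalised counts in the luminal columns and 406 and 335 in the basal columns. All 3 were higher in luminal cells, with a ratio of summed counts of 822 (95% counting interval 147 to 32502) for Aqp5, log2 folds of 6.06 and 3.85 for Scnn1a and Slc12a2, and adjusted p of 1.85e-06, 1.20e-05 and 1.08e-04. The zinc importer Slc39a8 was the basal call, with 58.3 and 199 normalised counts in the basal columns and 0 and 0 in the luminal columns, at least 21.1-fold higher.

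Epithelial surface and sorting markers gave 7 luminal and 2 basal calls among 20, against 8.59% and 5.98% of all genes tested. Cd24a, used to gate luminal cells, had 5122 and 5518 normalised counts in the luminal columns and 885 and 843 in the basal columns (log2 fold 2.62, SE 0.51). Procr, a marker of a basal subset, had 184 and 655 normalised counts in the basal columns and 5.51 and 19.3 in the luminal columns (log2 fold -4.86, SE 0.76). Their adjusted p were 0.00155 and 1.91e-04, and the second basal call was Lgr5. Innate defence genes gave 5 luminal calls and 1 basal call among 13 measured, a basal share near that over all genes. Cd14, the lipopolysaccharide coreceptor, had 408 and 499 normalised counts in the luminal columns and 23 and 18.8 in the basal columns, while the receptor Tlr2 had 726 and 1109 normalised counts in the basal columns and 115 and 188 in the luminal columns. The former was luminal (log2 fold 4.32, SE 0.61) and the latter basal (log2 fold -2.58, SE 0.53), with adjusted p of 6.30e-05 and 0.00242.

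The contractile apparatus had the lowest median of the lists with at least 6 members measured, -4.88. Of 20 members, all measured, 17 passed as basal higher and 0 as luminal higher, and 14 kept the call without each column in turn. Calponin, Cnn1, had 2614 and 621 normalised counts in the basal columns and 0.919 and 8.15 in the luminal columns. The regulatory myosin light chain Myl9 had 1314 and 758 normalised counts in the basal columns and 0 and 5.19 in the luminal columns, and leiomodin, Lmod1, a nucleator of actin filaments, had 686 and 469 normalised counts in the basal columns and 2.76 and 7.41 in the luminal columns. These were separated by 76.2, 146 and 63.2 times at the closest. Tropomyosin 2 (Tpm2) and caldesmon (Cald1), which many cells carry, had log2 folds of -3.95 and -3.43. The cytoskeletal protein Csrp1 was at 11436 and 5265 against 4653 and 2951 (luminal against basal columns) and did not pass (adjusted p = 0.185).

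Receptors and channels that steer contraction gave 5 basal calls and 1 luminal call among 13 measured, against 5.98% and 8.59% of all genes tested. The number of basal calls was 3 without the WT luminal column and 3 without the larger basal column, and that of luminal calls 3 without the larger basal column. The oxytocin receptor, Oxtr, had 213 and 303 normalised counts in the basal columns and 1.84 and 0 in the luminal columns. The calcium channel Cacna1c had 112 and 174 normalised counts in the basal columns and 0 and 0 in the luminal columns. Both had few or no luminal reads, with a ratio of summed counts of 323 (95% counting interval 88.9 to 2675) for Oxtr and at least 40.8-fold for Cacna1c (adjusted p 1.96e-05 and 6.06e-05). The luminal call was endothelin 1, Edn1, a peptide that makes smooth muscle contract, with 251 and 549 normalised counts in the luminal columns and 14.9 and 2.97 in the basal columns (log2 fold 5.26, SE 0.76, adjusted p = 8.73e-05). Its receptor Ednrb was at 1.35 and 54.5 against 0 and 0 (basal against luminal columns), and its call (adjusted p = 0.0367) was lost without the KO luminal column (adjusted p = 0.132), without the WT luminal column (adjusted p = 0.116) and without the larger basal column (adjusted p = 0.669).

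Basal transcription regulators gave 6 basal calls and 1 luminal call among 16 measured, against 5.98% and 8.59% of all genes tested. The number of basal calls was 2 without the WT luminal column, and that of luminal calls 2 without the larger basal column. Trp63 (p63), which basal epithelia need, had 111 and 387 normalised counts in the basal columns and 3.68 and 18.5 in the luminal columns (adjusted p = 0.00142). Irx4, an Iroquois homeodomain factor, had 90.8 and 124 normalised counts in the basal columns and 0 and 0 in the luminal columns, at least 32.9-fold higher. Snai2 (Slug), a repressor of luminal genes, had 27.1 and 80.3 normalised counts in the basal columns and 0 and 5.19 in the luminal columns and passed with all columns (adjusted p = 0.0446) but not without the WT luminal column (adjusted p = 0.249) and without the larger basal column (adjusted p = 0.178). Sox9, listed here for its role in stem cells, was the luminal call, with 1507 and 2698 normalised counts in the luminal columns and 382 and 166 in the basal columns (log2 fold 2.93, SE 0.57, adjusted p = 0.00154). Srf, the factor that drives smooth muscle genes, did not pass, at 1024 and 1437 against 921 and 395 (luminal against basal columns, adjusted p = 0.295).

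Basement membrane genes gave 11 basal calls and 1 luminal call among 20 measured, at a median of -2.32. Over all genes tested, 5.98% were called basal and 8.59% luminal. The number of basal calls was 7 without the WT luminal column. Collagen IV chain Col4a2 had 920.03 and 949 normalised counts in the basal columns and 0.919 and 17.8 in the luminal columns. Laminin chain Lama1 had 259 and 137 normalised counts in the basal columns and 4.6 and 0.741 in the luminal columns. Perlecan, Hspg2, had 2455 and 1232 normalised counts in the basal columns and 127 and 261 in the luminal columns. The laminin chain Lama5 ran opposite, with 1001 and 2066 normalised counts in the luminal columns and 262 and 152 in the basal columns (log2 folds of -5.47 for Lama1 and 2.88 for Lama5, SE 0.84 and 0.56). Integrins and hemidesmosome genes gave 4 basal calls (2 without the WT luminal column) and 2 luminal calls among 16 measured. The alpha chains Itga5 and Itga9 passed as basal higher (log2 folds of -3.14 and -3.81), while Itga2, a collagen receptor chain, and Itgb6, which activates TGF-beta, passed as luminal higher (2.24 and 4.07). Itgb6 had 1403 and 2309 normalised counts in the luminal columns and 74.5 and 143 in the basal columns. Itga6 and Itgb1, chains used to sort the layers by flow cytometry, stood at 1602 and 1773 against 907 and 1139 and 3377 and 2661 against 1402 and 1570.1 (basal against luminal columns) and did not pass (adjusted p 0.374 and 0.189).

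Other matrix and growth factor binding genes were basal in 15 of 23 measured members and luminal in 0, and 14 kept the call without each column in turn. Periostin, Postn, had 2363 and 4326 normalised counts in the basal columns and 21.1 and 8.9 in the luminal columns. Igfbp3, an IGF carrier, had 683 and 1706 normalised counts in the basal columns and 0 and 5.19 in the luminal columns, and vimentin, Vim, a filament protein of mesenchymal and myoepithelial cells, had 671 and 689 normalised counts in the basal columns and 2.76 and 11.9 in the luminal columns. Their log2 folds were -7.64 (SE 0.71), -8.00 (SE 0.85) and -6.18 (SE 0.69). The fibrillar collagen chain Col1a2 had 69.1 and 209 normalised counts in the basal columns and 0 and 0.741 in the luminal columns, a ratio of summed counts of 366 (95% counting interval 65 to 14491). Luminal calls in the list were 1 without the smaller basal column. Because fibroblasts make such genes too, their markers were read in the same columns. The 12 listed fibroblast markers summed to 293 and 2285 normalised counts in the basal columns and to 948 and 1256 in the luminal ones, so the sums overlapped between lineages and were highest in the larger basal column. Of the 8 measured, 5 did not overlap with basal higher and 1 with luminal higher, against 26.8% and 29.8% of all genes tested. Their median log2 fold was -3.82 (-2.53 with genes lacking reads in one lineage placed at their bound). Of 8 measured 4 passed as basal higher, a number that was 2 without the KO luminal column and 1 without the larger basal column, and the number passing as luminal higher was 2 without the larger basal column. Pdgfra, the fibroblast receptor, had 17.6 and 106 normalised counts in the basal columns and 2.76 and 0.741 in the luminal columns, and its call (adjusted p = 0.0155) was lost without the KO luminal column (adjusted p = 0.0931) and without the larger basal column (adjusted p = 0.264). Dcn, an abundant fibroblast proteoglycan, was at 133 and 1337 against 798 and 1008 (basal against luminal columns). It made up most of the luminal sums of the fibroblast markers. The part of fibroblast RNA in these results was not tested.

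Ptprc, which marks all leukocytes, had at most 3 reads in a column. The 16 leukocyte markers summed to 82.7 and 30.7 normalised counts in the basal and 153 and 176 in the luminal columns, with 0 luminal and 0 basal calls among 4 measured, and the luminal number was 1 without the larger basal column. The 10 endothelial markers summed to 81.3 and 278 in the basal and 48.7 and 22.2 in the luminal columns. Of the 3 endothelial markers measured 1 was called, Cdh5, at 20.3 and 116 against 1.84 and 0.741 (basal against luminal columns), with adjusted p = 0.0078, lost without the larger basal column (adjusted p = 0.167). Without the smaller basal column 2 passed. Of the 8 pericyte markers 3 were measured, and all 8 summed to 93.5 and 244 in the basal and 187 and 274 in the luminal columns. Most of the luminal sums came from 1 gene, Notch3, at 164 and 254. Of the 3 measured, 2 did not overlap with basal higher and 1, Notch3, with luminal higher, at a median log2 fold of -2.57. Pericytes also carry smooth muscle genes, and their defining receptor Pdgfrb had 25.7 and 35.7 normalised counts in the basal columns and 0 and 0 in the luminal columns (adjusted p = 0.0172), a call lost without the KO luminal column (adjusted p = 0.111) and without the WT luminal column (adjusted p = 0.0959). Another pericyte marker, the receptor Notch3, went the other way, at 164 and 254 against 5.42 and 30.7 (luminal against basal columns, adjusted p = 0.00579), and kept its call without each column in turn. Other pericyte markers, Abcc9, Kcnj8 and Higd1b, were below the minimum level, and the part of pericyte RNA in the contractile and matrix lists was not tested. The lists of adipocyte (8 genes), Schwann and nerve (8), erythrocyte (7) and skeletal muscle markers (10) had 1, 3, 1 and 1 members at the minimum level. Fabp4 of adipocytes and Sox10 of nerve passed as basal higher and Mbp of nerve as luminal higher, each lost without at least 1 column, and the part of these cells in the results was not tested.

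**Figure D3:**
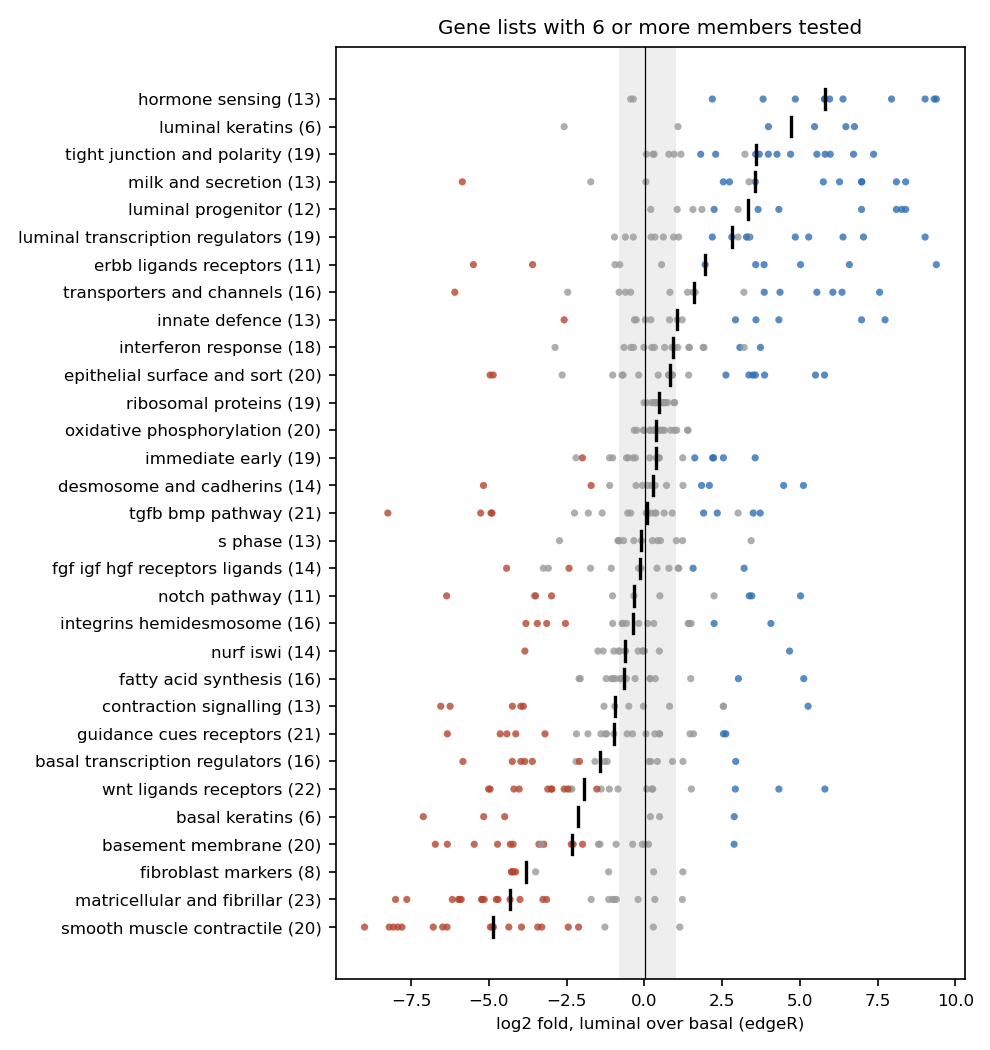
Log2 fold of luminal over basal columns (horizontal) for the measured members of each list with 6 or more of them, number in brackets. Points are genes, blue or red where called higher in luminal or basal columns and grey otherwise, black ticks are list medians, and the grey band is the interquartile range over all 10530 genes. Smooth muscle contractile genes have the lowest median, -4.88, and hormone sensing genes the highest, 5.80.

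In the Notch pathway, which steers cells to the luminal fate, 3 of 11 measured members were luminal and 3 basal, against 8.59% and 5.98% of all genes tested. Among them were 2 receptors called luminal and 2 ligands called basal. The receptor Notch1 had 448 and 639.8 normalised counts in the luminal columns and 65 and 31.7 in the basal columns. The receptor Notch3 had 164 and 254 normalised counts in the luminal columns and 5.42 and 30.7 in the basal columns, and the target Hes1 had 69.8 and 90.4 normalised counts in the luminal columns and 1.35 and 0 in the basal columns (142 (25.2 to 5634) as the ratio of summed counts with its interval). The luminal columns were above the basal ones for all 3. The ligand Dll1 had 1117 and 239.9 normalised counts in the basal columns and 2.76 and 9.64 in the luminal columns, and the ligand Jag1 had 1558 and 1394 normalised counts in the basal columns and 139 and 229.8 in the luminal columns. For both ligands the basal columns were the higher pair, with log2 folds of -6.36 (SE 0.81) and -2.99 (SE 0.53) against 3.45 (SE 0.59) for Notch1 and 3.37 (SE 0.78) for Notch3. The receptor Notch2 overlapped, at 598 and 1272 against 1554 and 812 (luminal against basal columns), as did the ligand Dll4, at 35.8 and 2.97 against 0 and 4.96, and neither passed (adjusted p 0.743 and 0.332). The calls of Notch1, Notch3, Hes1, Dll1 and Jag1 held without each column in turn.

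The Wnt pathway gave 10 basal and 3 luminal calls among 22 measured members, against 5.98% and 8.59% of all genes tested. The luminal calls were the ligands Wnt4, with 180.1 and 150.5 normalised counts in the luminal columns and 0 and 1.98 in the basal columns, Wnt7b, with 488 and 695 normalised counts in the luminal columns and 29.8 and 25.8 in the basal columns, and Wnt5b, with 327 and 265 normalised counts in the luminal columns and 65 and 10.9 in the basal columns. The receptor Fzd7 had 837 and 1629.6 normalised counts in the basal columns and 50.5 and 80.1 in the luminal columns. The receptor Fzd1 had 55.6 and 315 normalised counts in the basal columns and 0.919 and 6.67 in the luminal columns, and Lgr5, the R-spondin receptor, had 31.2 and 108 normalised counts in the basal columns and 0 and 0.741 in the luminal columns. In these 3 receptors each basal column was above each luminal column, and the calls held without each column in turn (adjusted p with all columns 6.09e-05, 0.00111 and 0.00271). Of the 10 basal calls 3 held in that way, and the total of basal calls was 6 without the WT luminal column. The ligand Wnt10a was basal with all columns, at 58.3 and 50.6 against 0 and 2.97 (adjusted p = 0.0198), and not without the WT luminal column (adjusted p = 0.148). For Wnt4 and Lgr5, with 1 or 2 reads on the lower side, the ratios of summed counts were 143 (39.3 to 1185) and 184 (32.5 to 7328) with their 95% counting intervals.

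The EGF receptor family was also divided, with 6 luminal and 2 basal calls among 11 measured, against 8.59% and 5.98% of all genes tested. The receptor Erbb3 had 357 and 335 normalised counts in the luminal columns and 1.35 and 1.98 in the basal columns. The ligand Epgn had 479.7 and 316 normalised counts in the luminal columns and 5.42 and 14.9 in the basal columns. Beside Areg these were the luminal members that kept the call without each column in turn, and the total of luminal calls was 3 without the WT luminal column. On the basal side the ligand Ereg had 1029.8 and 397 normalised counts in the basal columns and 18.4 and 9.64 in the luminal columns, and Nrg1, the ligand of Erbb3 and Erbb4, had 724 and 274 normalised counts in the basal columns and 39.5 and 39.3 in the luminal columns. The ratio of summed counts was 201 (68.4 to 975) for Erbb3 with its interval, and the log2 fold was -3.60 (SE 0.62) for Nrg1. Egfr was at 866 and 618 against 1477 and 1389 (luminal against basal columns) and did not pass (adjusted p = 0.223).

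Activins and their antagonist fell in opposite lineages. The subunit Inhbb had 550.5 and 532 normalised counts in the luminal columns and 66.4 and 26.8 in the basal columns (log2 fold 3.50, SE 0.60). Follistatin, Fst, which traps activin, had 1569 and 1657 normalised counts in the basal columns and 5.51 and 1.48 in the luminal columns (log2 fold -8.25, SE 0.71). The TGF-beta coreceptor Tgfbr3 had 944 and 1047 normalised counts in the basal columns and 26.7 and 21.5 in the luminal columns, and Ltbp2, a latent TGF-beta binding protein family member, had 2425 and 1721 normalised counts in the basal columns and 39.5 and 91.9 in the luminal columns. Of 21 measured members of this pathway 4 were basal, all of them also without each column in turn, and 4 were luminal, a number that was 2 without the WT luminal column and 1 without the KO luminal column. Over all genes tested, 5.98% were called basal and 8.59% luminal. The signalling receptors Tgfbr1 and Tgfbr2 did not pass (adjusted p 0.134 and 0.967).

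Among guidance molecules 5 of 21 measured members were basal and 2 luminal, against 5.98% and 8.59% of all genes tested. The luminal share was thus near that over all genes. Slit2, a repulsive cue, had 114 and 382 normalised counts in the basal columns and 0 and 2.22 in the luminal columns. Sema3c had 522 and 752 normalised counts in the basal columns and 13.8 and 41.5 in the luminal columns. The receptor Ephb3 had 294 and 339 normalised counts in the luminal columns and 59.6 and 40.6 in the basal columns. Slit2 (218 (74.2 to 1061) as the ratio of summed counts with its interval) and Sema3c (log2 fold -4.42) were basal and Ephb3 (log2 fold 2.62) luminal, each also without each column in turn. Those were 2 of the basal calls and 1 of the luminal ones, and the total of luminal calls was 1 without the KO luminal column, 4 without the smaller basal column and 4 without the larger basal column. FGF, IGF, HGF and related factors gave 2 luminal and 2 basal calls among 14 measured, and none of these 4 calls held without each column in turn. The luminal number was 0 without the WT luminal column, 0 without the KO luminal column, 1 without the smaller basal column and 1 without the larger basal column, and the basal number 1 without the WT luminal column.

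**Figure D4:**
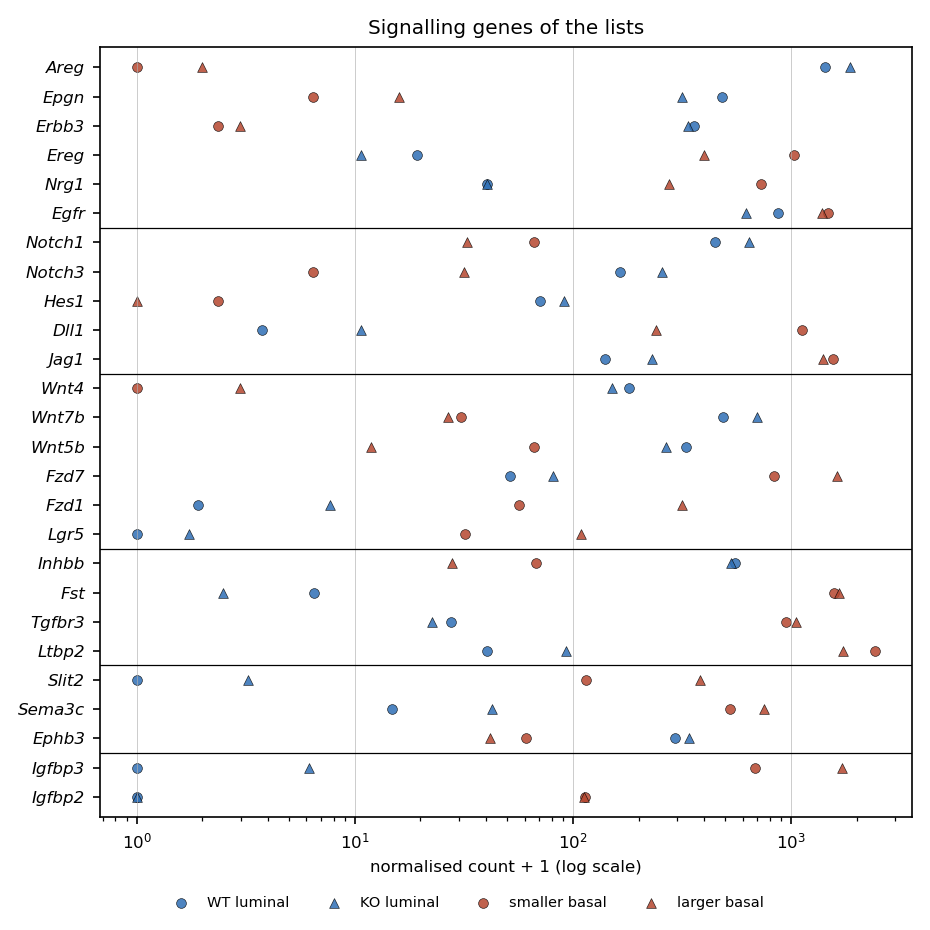
Normalised count plus 1 on a log axis for members of the EGF, Notch, Wnt, activin and TGF-beta, guidance and IGF carrier groups, from top to bottom, divided by lines. Each symbol is 1 column, blue for luminal and red for basal. The receptors Notch1 and Notch3 are higher in luminal columns and the ligands Dll1 and Jag1 in basal ones. The Wnt ligands shown are higher in luminal and the receptors Fzd7, Fzd1 and Lgr5 in basal columns. The genes shown were picked with their values known. Of Wnt members not shown, the ligand Wnt10a was called basal (log2 fold -4.03). The ligand Wnt5a (0.27) and the receptor Fzd6 (0.07) were not called.

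Of 14 chromatin remodellers of the NURF and ISWI family 1 passed as luminal higher and 1 as basal higher, a share near the 14.6% called over all genes. Cecr2, a bromodomain partner of ISWI ATPases, had 159.9 and 110.5 normalised counts in the luminal columns and 4.06 and 2.97 in the basal columns (log2 fold 4.67, SE 0.84, adjusted p = 7.35e-04). Smarca1, the NURF ATPase also called SNF2L, had 16.3 and 34.7 normalised counts in the basal columns and 0 and 0 in the luminal columns. Its call (adjusted p = 0.0263) was lost without the KO luminal column (adjusted p = 0.157), without the WT luminal column (adjusted p = 0.139) and without the larger basal column (adjusted p = 0.059). The paralogous ATPase Smarca5 (SNF2H) was at 99.3 and 59.3 against 104 and 139 (luminal against basal columns) and did not pass (adjusted p = 0.613).

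Lists of general cell state differed in their share of calls, against 14.6% over all genes. None of the 19 ribosomal protein genes and none of the 20 oxidative phosphorylation genes measured passed the edgeR test in either direction. At an unadjusted p under 0.05 there were 0 ribosomal and 2 oxidative phosphorylation genes, DESeq2 called 0 and 1, and limma-voom none of either. Without the smaller basal column 1 ribosomal and 3 oxidative phosphorylation genes passed as luminal higher. Their medians with all columns were 0.46 and 0.38. Immediate early genes gave 5 luminal calls and 1 basal call among 19, against 8.59% and 5.98% of all genes tested. The basal share was thus near that over all genes. Fosb had 1941 and 1501 normalised counts in the luminal columns and 386 and 203 in the basal columns and Jund had 307 and 363 normalised counts in the luminal columns and 33.9 and 19.8 in the basal columns. Both AP-1 subunits were luminal without each column in turn, and the total of luminal calls in the list was 2 without the WT luminal column and 2 without the larger basal column. The number of basal calls was 0 without the WT luminal column, 2 without the KO luminal column, 0 without the smaller basal column and 2 without the larger basal column. Myc was the basal call, at 5280.3 and 2047 against 559 and 1276 (basal against luminal columns, adjusted p = 0.0276), and not without the WT luminal column (adjusted p = 0.264) and without the smaller basal column (adjusted p = 0.19). S phase genes gave 0 luminal and 0 basal calls among 13 measured, with 1 without the WT luminal column and 1 without the larger basal column on the basal side, and 4 of 20 G2 and M phase genes reached the minimum level. Of those 2 passed as luminal higher, Mad2l1 and Aurka, and 1 whichever column was left out. Interferon response genes gave 2 luminal and 0 basal calls among 18 measured, and the number of luminal calls was 1 without the WT luminal column, 0 without the KO luminal column, 1 without the smaller basal column and 7 without the larger basal column.

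Promoters are shown for separated genes of either lineage that carry the letters of a TATA box near the start, which most separated genes lack. Sequences are the 250 bases before the RefSeq start in build GRCm38.p6, all on the plus strand, with TATAAA in capitals. Areg (chr5:91139349-91139598) and Cxcl15 (chr5:90794284-90794533) are luminal, and Postn (chr3:54360857-54361106) and Vim (chr2:13574061-13574310) basal.
Areg: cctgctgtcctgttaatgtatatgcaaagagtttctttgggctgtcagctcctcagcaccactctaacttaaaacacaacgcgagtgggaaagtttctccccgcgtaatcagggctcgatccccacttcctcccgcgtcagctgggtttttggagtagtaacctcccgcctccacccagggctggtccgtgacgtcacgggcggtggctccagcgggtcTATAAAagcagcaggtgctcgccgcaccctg
Cxcl15: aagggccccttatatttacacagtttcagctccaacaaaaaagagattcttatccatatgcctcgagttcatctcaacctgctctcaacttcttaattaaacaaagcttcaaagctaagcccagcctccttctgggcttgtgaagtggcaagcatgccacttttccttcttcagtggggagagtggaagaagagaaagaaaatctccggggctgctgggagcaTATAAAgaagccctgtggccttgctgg
Postn: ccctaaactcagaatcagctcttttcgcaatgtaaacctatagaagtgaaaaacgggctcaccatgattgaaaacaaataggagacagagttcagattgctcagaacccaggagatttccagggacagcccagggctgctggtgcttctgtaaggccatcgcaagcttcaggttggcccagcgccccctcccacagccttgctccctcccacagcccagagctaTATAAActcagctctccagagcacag
Vim: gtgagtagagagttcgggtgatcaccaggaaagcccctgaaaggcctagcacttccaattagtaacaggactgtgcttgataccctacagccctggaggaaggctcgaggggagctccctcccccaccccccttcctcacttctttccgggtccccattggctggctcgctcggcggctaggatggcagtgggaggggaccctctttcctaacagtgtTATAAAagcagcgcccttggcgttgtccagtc
TATAAA begins 31, 27, 26 and 32 bases before the start in Areg, Cxcl15, Postn and Vim. TATAAA on either strand of these windows was found in 7.73% of the 7957 tested genes with a promoter in the table, in 10.02% of 579 genes with a gap of at least 4-fold on the luminal side and in 11.4% of 324 on the basal side, and in 14.3% of all 27025 genes of the promoter table. A CArG box can hold TATAAA within it, so the motifs can overlap. The CArG box, the motif bound by Srf, was found on either strand in 1.5% of these tested genes, in 1.21% and 1.54% of the genes with such a gap on the luminal and basal side, and in 1 of the 13 contractile genes called basal that have a promoter in the table. That gene is Myl9 (chr2:156775214-156775463, plus strand), shown with the CArG box in capitals.
Myl9: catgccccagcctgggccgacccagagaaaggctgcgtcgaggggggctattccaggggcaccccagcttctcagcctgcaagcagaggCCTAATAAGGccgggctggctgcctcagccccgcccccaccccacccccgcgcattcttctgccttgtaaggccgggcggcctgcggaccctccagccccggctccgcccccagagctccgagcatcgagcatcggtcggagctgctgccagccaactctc

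The Bsecs column, which was not used to separate the lineages, was set beside them on a scale of 5 columns. Of 480 genes with basal columns at least 4-fold above luminal ones, Bsecs reached the lower basal value for 63 (13.1%), lay at or below the higher luminal value for 131 (27.3%) and fell between for 286 (59.6%). Of 806 genes with the luminal columns higher, it reached the lower luminal value for 110 (13.6%), lay at or below the higher basal value for 249 (30.9%) and fell between for 447 (55.5%). Krt5 and Krt14, at 3395 and 9183 normalised counts in Bsecs, reached the basal level, whereas Acta2 at 148, Mylk at 31.4 and Oxtr at 1.08 did not. Cldn4, at 40097, and Itgb6, at 7424, were above both luminal columns (values put on the scale of the 4 columns). Prlr, at 129, and Wfdc18, at 58.4, lay between the lineages, and Csn3, at 3.24, did not exceed the higher basal column. This is 1 column, for a group of 2 samples, with no replicate check, and its Rn45s share was 32.2%. Because the genes were picked for a wide gap, the shares in between do not by themselves show an intermediate state.

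**Figure D5:**
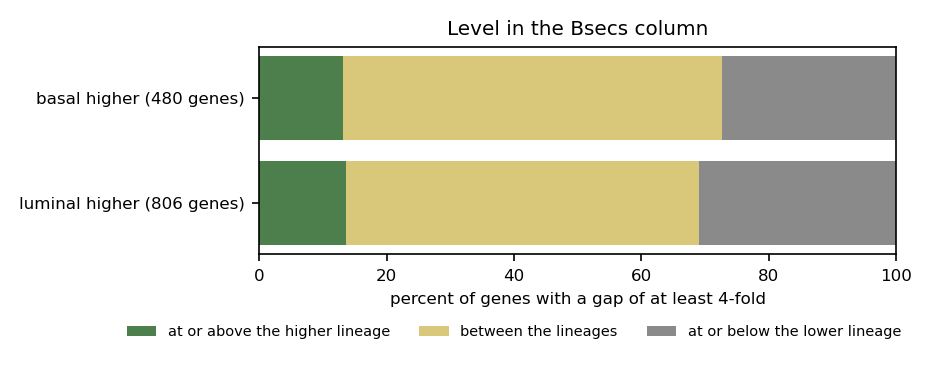
Share of genes with a gap of at least 4-fold between lineages (horizontal, percent) whose Bsecs level was at or above the lower value of the higher lineage (green), between the lineages (yellow) or at or below the higher value of the lower lineage (grey). The intermediate class is the largest for both directions, 59.6% of 480 basal genes and 55.5% of 806 luminal genes. The genes were picked for a wide gap, which leaves room for that class, and no share to compare it with was computed.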

How the data were processed

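RNA sequencing was done on sorted cells, with TRIzol extraction and the Ovation RNA-seq V2 and Ultralow DR kits per the labels' protocols. The authors deposited tables of mean normalised signal per gene, 1 column per group, and the submitters' processing notes name STAR, DESeq and mm9, with no versions. The sources used here do not give the counter, annotation or strand setting, or whether a column pools both libraries. Dividing each deposited column by its smallest nonzero value returned whole read counts for 100% of values (within 0.01), and the tables held 5 distinct columns and 0 of other origin. Reads of amplified RNA are not independent molecules, and floors and intervals therefore cover only counting error.

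Of 24000 genes listed, 16437 had a count in the 4 columns. Columns were scaled by the median of ratios over 10188 genes. The 10530 genes with a mean normalised count of at least 10 were tested luminal against basal with edgeR 4.0.16 (R 4.3.3, quasi-likelihood test, Benjamini-Hochberg adjustment over all genes tested), with DESeq2 1.42.0 and limma 3.58.1 as alternatives. The design had assumed counts, and the test was run on the recovered counts. The fit was also run on simulated counts with known folds, as a check of the code. Those counts held no genotype difference within a lineage, so they do not measure the error of the calls given here. Without knowledge of separate mice behind a column, p-values measure the spread between columns. Named genes are 7 defining genes, the 12 per direction with the widest gap and up to 5 per direction of each of 39 lists (656 entries, 1 not in the files). The 12 were taken among genes called by edgeR with a minimum mean of 50. Predicted genes, small RNAs and symbols that were dates or duplicated were passed over. The 5 per list were taken among members that were called or did not overlap. Any other member was picked for naming with its values known. The members and lists were chosen with earlier results of these data known. Symbols turned into dates (23) and 4 duplicated rows were kept as listed. Floors are 3 counts per column, and intervals are 95% Clopper-Pearson.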

Additional observations from a re-analysis of the deposited data

How the results depend on the processing

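Scaling by TMM or by totals without Rn45s, dropping the minimum, DESeq2, limma-voom and a genotype term (either naming of the basal columns) left each count of edgeR calls within 1.5 times, from 745 to 1131 luminal and from 563 to 850 basal. Without each column in turn they ran from 547 to 1255 luminal and from 386 to 786 basal. Columns that did not overlap numbered 1816 luminal and 1997 basal at a minimum mean of 50, and 2952 and 2977 with totals without Rn45s, against 3134 and 2817, so the larger side changed, and a gap of at least 4-fold left 811 luminal and 480 basal genes. The lower numbers at 50 and at 4-fold follow from testing fewer genes or asking for a wider gap. Of the 1535 genes called, 1 had the opposite sign without the smaller basal column and 2 without the larger, none of them named here, and limma-voom ended the calls of 8 named genes. Among named genes, direction reversed in some that were not called. The log2 fold of Bptf was -0.020 with TMM and -0.084 with totals, that of Tgfbr2 -0.0089 with totals, and that of Esr1 1.36 with limma-voom and 1.02 and 1.05 with a genotype term. Without each column in turn it ran from -0.20 to 0.24 for Bptf, -1.32 to 3.63 for Esr1, -1.01 to 0.18 for Aqp3, -0.57 to 2.75 for Dcn, -0.44 to 1.10 for Gata3, -0.98 to 0.20 for Notch2, -0.35 to 0.66 for Rn45s and -0.35 to 0.37 for Tgfbr2. The cause was not tested. No paired analysis was possible because the columns carry no replicate numbers, so the replicate block was not run. With 2 columns a lineage, each of which may hold a single library, and 2036681 to 3840462 counts each, genes under a mean of 10 were not tested, and where a column was left out its lone partner was assumed to vary like the other lineage.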
